A study of Mus musculus with 20 samples.

Results

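The 6 chains of collagen IV, the network-forming collagen of basement membranes, were followed in mouse lenses that had lost E2F transcription factors. Their genes, Col4a1 to Col4a6, were found by symbol among the array's probe sets, the groups of short probes that each measure 1 transcript. They were read by 12 of the 45037 probe sets that are not array controls, for 6 of the 18193 named genes. TKO lenses carried Cry-Cre, a Cre recombinase named for a crystallin promoter, with E2F1-/-, E2F2-/- and E2F3f/f, and were taken late in gestation (E17.5) or as newborns (P0). Control lenses of the same stages were E2F2-/-, so that loss of E2F2 was shared by all 4 groups, and Cre was named in the TKO labels only. Each group had 5 arrays, 20 in all, each made from both lenses of a mouse, and the deposited values were log2 signals. The labels call the cells epithelial, but whole lenses were dissected. The 10 lens fibre markers on the array, such as crystallins, all lay above the array's median on every array and averaged between 11.96 and 12.56 on the log2 scale.

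Collagen IV chains wind around each other into protomers, which join into the sheet that holds a basement membrane together. The known kinds are α1α1α2, found in nearly every basement membrane, α3α4α5, known from the kidney glomerulus, the cochlea and the eye, and α5α5α6. The lens capsule is an unusually thick basement membrane laid down by lens cells, by the anterior epithelium above all. Its α1 and α2 chains are the early ones, and α3 and α4 are known to appear in it later in mice. Mutations of COL4A3, COL4A4 or COL4A5 in people cause Alport syndrome, in which the anterior lens capsule thins and bulges.

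The 6 genes stand in 3 head-to-head pairs, each read outwards from a shared promoter region. In the RefSeq annotation of GRCm38.p6, Col4a1 spans chr8:11198423-11312889 on the minus strand and Col4a2 spans chr8:11312805-11449287 on the plus strand. Col4a4 spans chr1:82448419-82587034 on the minus strand and Col4a3 spans chr1:82586921-82722059 on the plus strand. Col4a6 spans chrX:141165403-141474095 on the minus strand and Col4a5 spans chrX:141475370-141689236 on the plus strand. By these spans Col4a1 and Col4a2 overlap, as do Col4a4 and Col4a3. The start sites used for the promoter stretches can lie inside the spans. By them, Col4a1 and Col4a2 start 21 bases apart and Col4a6 and Col4a5 start 1343 bases apart. The Col4a4 start site so used, chr1:82586849, lay 72 bases from the start of the Col4a3 span.

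The promoter stretches of Col4a4, which reaches past the Col4a3 start, and of Col4a1 and Col4a2 are shown because partners share these regions and were compared as pairs. Stretches of 5 of the 6 chains were used, and that of Col4a3 was not used here. They come from RefSeq on GRCm38.p6 and run from 250 bases before to 50 bases after the start site, 5′ to 3′ on the gene's own strand. Capitals mark every match, on either strand, to 6 motifs: GGGCGG (as in the GC box), CCAAT (as in the CCAAT box), TATAAA (as in the TATA box), and as E2F-type letters TTCGCGC, with its variants TTGGCGC and also TTCCCGC. No motif contains another, and overlapping matches were all counted. Col4a4, chr1:82586800-82587099 on the minus strand, contains the Col4a3 start and had none of the 6 motifs.
Col4a4: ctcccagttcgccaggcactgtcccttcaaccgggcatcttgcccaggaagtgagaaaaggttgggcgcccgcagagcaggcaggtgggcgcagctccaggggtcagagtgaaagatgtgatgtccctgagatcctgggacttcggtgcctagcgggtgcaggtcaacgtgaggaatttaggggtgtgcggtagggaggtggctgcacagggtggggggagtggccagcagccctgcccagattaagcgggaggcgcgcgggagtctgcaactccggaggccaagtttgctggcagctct
Col4a1, chr8:11312777-11313076 on the minus strand, and Col4a2, chr8:11312555-11312854 on the plus strand, overlap by 78 bases.
Col4a1: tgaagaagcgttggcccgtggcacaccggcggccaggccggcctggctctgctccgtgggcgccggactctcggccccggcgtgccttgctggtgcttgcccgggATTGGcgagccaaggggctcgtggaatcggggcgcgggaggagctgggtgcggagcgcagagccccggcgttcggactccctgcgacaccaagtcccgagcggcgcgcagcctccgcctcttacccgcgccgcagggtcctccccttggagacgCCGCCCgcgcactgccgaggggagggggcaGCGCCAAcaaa
Col4a2: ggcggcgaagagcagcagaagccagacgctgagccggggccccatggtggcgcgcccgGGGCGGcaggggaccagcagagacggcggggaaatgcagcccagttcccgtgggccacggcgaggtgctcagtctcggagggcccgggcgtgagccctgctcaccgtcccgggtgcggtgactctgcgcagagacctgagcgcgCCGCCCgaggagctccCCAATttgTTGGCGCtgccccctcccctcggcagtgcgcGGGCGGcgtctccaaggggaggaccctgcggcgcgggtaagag
TTGGCGC occurred once in each, at the same site, 40 bases after the Col4a1 start site and at -24 from that of Col4a2. It occurred in 2.45% of 32851 mouse promoter stretches of this length. GGGCGG, present in both, occurred in 35.7% and CCAAT in 37.4% of them. TATAAA occurred in 13.6%, TTCGCGC in 1.59% and TTCCCGC in 4.6% of the stretches, and in none of the 5 collagen IV stretches. The stretches of Col4a5 and Col4a6 held GGGCGG, and that of Col4a5 also CCAAT, with no E2F-type letters. GC content was 63.3% in Col4a4, 74.0% in Col4a1, 73.7% in Col4a2, 52.7% in Col4a5 and 48.3% in Col4a6. A match to letters is a description of the sequence and does not show that a factor binds there.

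The arrays had medians between 5.05 and 5.25. TKO E17.5 replicates 24 and 27 stood apart: they correlated more closely with the control arrays of their stage (mean r of 0.990 and 0.993 over all probe sets) than with their own group (0.985 and 0.988). Collagen IV results that rest on TKO E17.5 lenses are therefore given with and without them. By the brightest E2f1 probe set, signal averaged 7.79 ± 0.14 in TKO P0 and 7.34 ± 0.14 in control P0 lenses, and 7.81 ± 0.17 in TKO E17.5 and 7.21 ± 0.04 in control E17.5 lenses (log2, SD, n = 5 each), so it was higher where the labels give E2F1-/-. E2f3 averaged 7.95 ± 0.17 in TKO P0 and 8.01 ± 0.09 in control P0 lenses, and 8.38 ± 0.21 in TKO E17.5 and 8.46 ± 0.12 in control E17.5 lenses. E2f2 averaged between 6.21 and 6.31 in all groups. No source used here places these probes against the deleted exons, so the E2f signals do not check the labels. The labels do not say whether littermates were used, and p-values measure the spread between mice as sampled.

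At birth all 6 chains were lower in TKO lenses, and the a3/a4 pair by far more than the others. In limma's moderated test over all 45037 probe sets with Benjamini-Hochberg adjustment, in which an adjusted p under 0.05 was called, 11 of the 12 collagen IV probe sets were called lower in TKO P0 than in control P0 lenses. Of all probe sets, 10.6% were called lower in this comparison and 10.8% higher. For 10 of the 12, every TKO P0 array lay below every control P0 array, which held for 7.51% of all probe sets. Counting each gene by its brightest probe set, all 6 chains were called lower, against 11% of named genes. The median change of the 12 was -0.85 on the log2 scale, beside -0.01 over all probe sets.

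Col4a4, which encodes the α4 chain, had log2 signals of 6.55, 5.61, 6.70, 7.37 and 7.56 in the TKO P0 lenses, against 9.0, 9.52, 9.37, 9.49 and 9.73 in control P0 lenses (probe set 1445328_at; replicates 17, 18, 19, 21 and 22, and 1, 5, 6, 7 and 8, as in the lists that follow). The groups were separated by more than the range within the controls. The log2 change was -2.66 ± 0.30 (SE), 6.33-fold lower, with a limma adjusted p of 0.000186. Col4a3, which encodes its partner α3, had 4.99, 5.31, 5.52, 6.09 and 5.51 in the TKO P0 lenses, against 7.47, 7.80, 7.77, 7.87 and 7.38 in control P0 lenses (1438779_at). The groups again did not overlap, and replicate 21 was the highest TKO lens. The change was -2.18 ± 0.17, 4.52-fold lower (limma adjusted p = 3.46e-05). In TKO P0 lenses this probe set lay between the percentiles 46.2 and 63.0 of its arrays, and that of Col4a4 between 55.7 and 79.4. No detection calls were used, so it is not known whether such signals were above background, and these folds may be lower bounds.

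The dimmer probe sets of these genes gave the same direction. Col4a4 changed by -2.49 on 1440250_at and by -1.88 on 1425772_at, and Col4a3 by -1.70 on 1450224_at, each called by limma. Col4a3 1450224_at lay above its array's median in 2 of the 5 TKO P0 lenses. Col4a4 1425772_at lay above its array's median in the 5 control P0 lenses only, so its changes are measured against signals in the lower part of each array.

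Col4a1 and Col4a2 encode the α1 and α2 chains of the ubiquitous protomer. Col4a2 had 11.06, 10.90, 11.01, 11.34 and 11.72 in TKO P0 lenses, against 11.96, 12.24, 12.15, 12.31 and 12.21 in control P0 lenses (1424051_at). Every TKO lens was lower, replicate 22 by the least. The change was -0.97 ± 0.14, 1.96-fold lower (limma adjusted p = 0.000642). Col4a1 had 12.46, 12.45, 12.41, 12.75 and 12.97 in TKO P0 lenses, against 13.08, 13.32, 13.26, 13.29 and 13.31 in control P0 lenses (1452035_at). These groups did not overlap either. The change was -0.64 ± 0.11, 1.56-fold lower (limma adjusted p = 0.00165), and -0.70 ± 0.14 on 1426348_at (0.00419).

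Col4a5 and Col4a6 encode α5, a partner of both α3α4 and α6, and α6. Col4a6 had 9.27, 8.75, 9.28, 9.36 and 9.65 in TKO P0 lenses, against 9.90, 9.91, 10.10, 10.11 and 9.95 in control P0 lenses (1421007_at). The groups did not overlap, with replicate 18 the lowest TKO lens. The change was -0.73 ± 0.13, 1.66-fold lower (limma adjusted p = 0.00248). Col4a5 had 10.76, 10.22, 10.69, 10.88 and 11.05 in TKO P0 lenses, against 11.15, 11.15, 11.36, 11.26 and 11.32 in control P0 lenses (1425476_at). The gap between the groups was narrow, and the change was -0.53 ± 0.13, 1.44-fold lower (limma adjusted p = 0.0119). The second probe sets of these genes were closer to 0 and overlapped between the groups. Col4a6 1421006_at changed by -0.37 ± 0.12 (limma adjusted p = 0.0469), a call lost on leaving out any of 8 of the 10 lenses, and Col4a5 1425475_at by -0.33 ± 0.17 (0.215, not called).

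**Figure D1:**
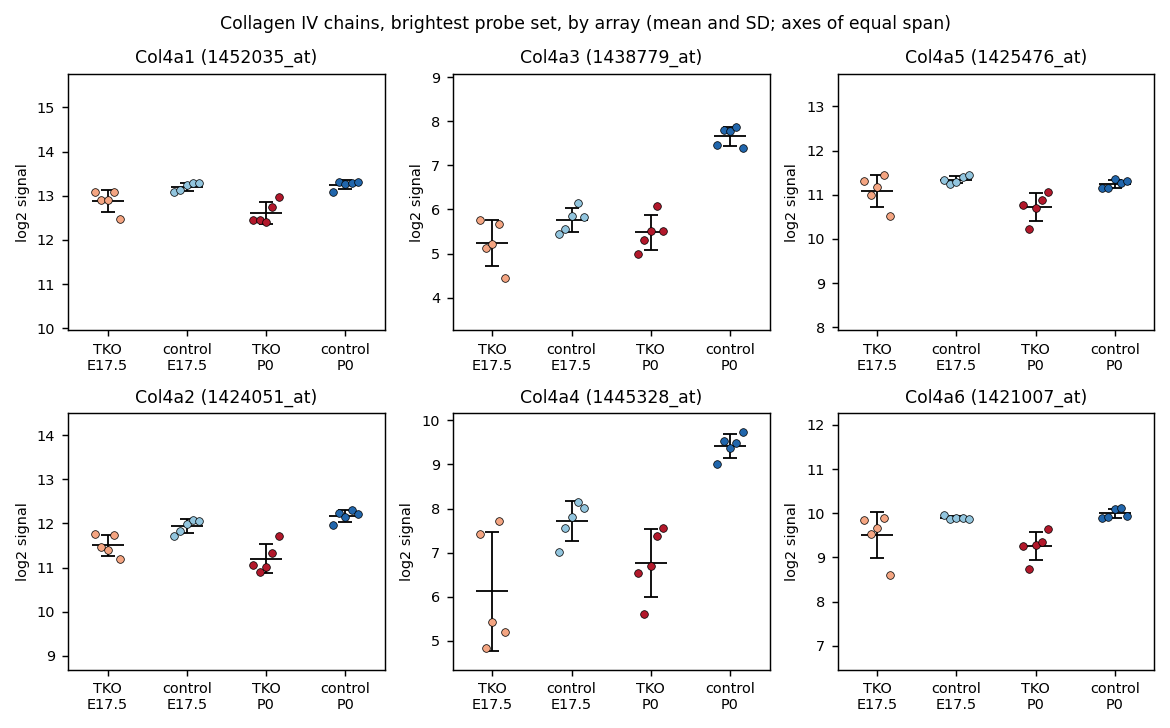
Log2 signal (vertical axes, each spanning the same number of log2 units) of the brightest probe set of each chain on the 20 arrays, by group; points are lenses of single mice and bars the mean and SD of 5. Col4a3 and Col4a4 sit highest in control P0 lenses, clear of the other 3 groups, whereas Col4a1, Col4a2, Col4a5 and Col4a6 differ mainly by the low TKO P0 lenses.

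Other cell markers moved with genotype at birth. The mean log2 of 8 lens epithelium markers ran between 8.43 and 9.51 in TKO P0 and between 9.61 and 9.95 in control P0 lenses, without overlap. Of the 8, 6 were called lower. Among them were Pdgfra, the PDGF receptor of these cells, Cdh1 (E-cadherin) and Foxe3, a lens epithelial transcription factor. The other 2, Pax6 and Gja1, were called higher, and the reason was not tested. The mean of the 17 retina markers on the array ran between 6.65 and 7.63 in TKO P0 and between 4.85 and 6.33 in control P0 lenses, with 14 of 17 called higher and Rcvrn, a photoreceptor marker, averaging 3.76 in TKO P0 and 3.90 in control P0 lenses. Pigment cell markers had 8 of 12 called higher, with means of 6.98 to 7.55 in TKO P0 and 6.16 to 6.53 in control P0 lenses, and macrophage markers 5 of 11, with means of 5.96 to 6.89 in TKO P0 and 5.27 to 6.34 in control P0 lenses. The part of pigment cell and macrophage RNA in the collagen IV changes was not tested. Endothelium and pericytes, which make collagen IV in vessels, showed 0 of 13 called and 1 higher and 2 lower of 8. Their means spanned 6.71 to 7.39 and 6.64 to 7.41 in TKO P0, against 6.74 to 7.73 and 7.0 to 7.69 in control P0 lenses. Of the 10 lens fibre markers 2 were called lower, and of the 9 mesenchyme and 3 erythroid markers none was called. Over all named genes 12.7% were called higher and 11% lower in this comparison. In whole lenses, fewer cells of a type and less RNA per cell cannot be told apart.

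With the lens epithelium mean as a covariate, in a fit added after these values had been seen, the changes of all 6 chains at birth were smaller on their brightest probe sets. The covariate does not overlap between the groups, so its effect and that of genotype cannot be told apart. The Col4a1 changes became -0.08 ± 0.12 and 0.07 ± 0.13, that of Col4a2 -0.20 ± 0.12, those of Col4a5 0.08 ± 0.17 and 0.59 ± 0.19, and those of Col4a6 -0.10 ± 0.18 and 0.19 ± 0.17, none called by limma. Col4a3 changed by -1.81 ± 0.34 (limma adjusted p = 0.0381), against -2.18 without the covariate, and on its second probe set by -0.87 ± 0.21 (0.0708), against -1.70. Col4a4 changed by -1.13 ± 0.35 on its brightest probe set (0.14), against -2.66, by -1.42 ± 0.22 on 1440250_at (0.0283), against -2.49, and by -1.49 ± 0.26 on 1425772_at (0.0303), against -1.88. In all, 3 of the 12 collagen IV probe sets were called lower in that fit, and 0.184% of all.

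With the retina mean as covariate the changes stayed closer to those without it, with larger errors. The retina mean does not overlap between the groups either, so its effect and that of genotype cannot be told apart. Comparing this fit with the one before it therefore does not show which markers matter more. By limma 4 of the 12 were called lower, and 0.309% of all. They were both of Col4a3 (-2.32 and -1.40) and 2 of Col4a4 (-2.27 and -1.69). The brightest Col4a4 probe set changed by -2.25 ± 0.53 (limma adjusted p = 0.0651) and Col4a2 by -0.73 ± 0.24 (0.157). Col4a1 changed by -0.53 ± 0.20 and -0.50 ± 0.25, Col4a6 by -0.53 ± 0.24 and -0.24 ± 0.22, and Col4a5 by -0.40 ± 0.23 and -0.12 ± 0.31, none called.

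**Figure D2:**
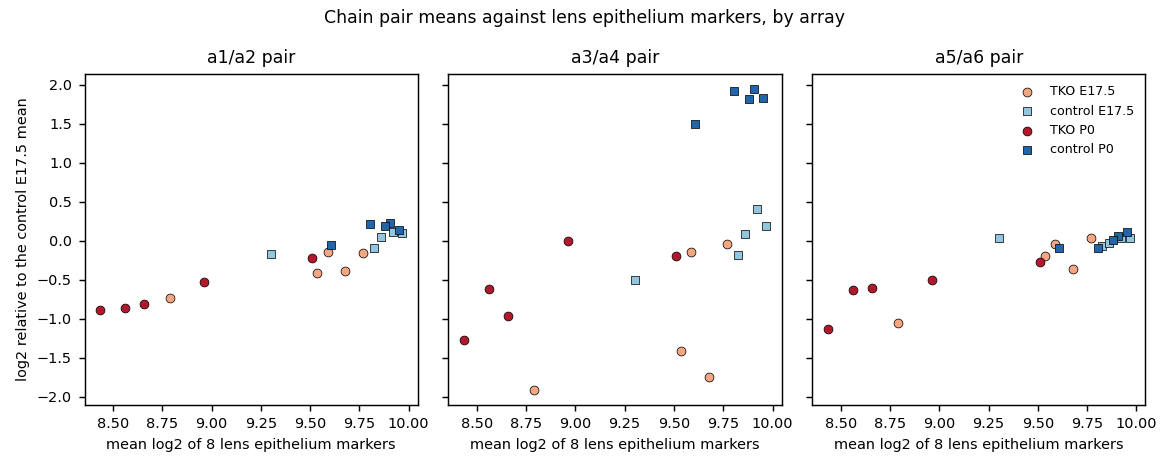
Mean log2 of the brightest probe sets of each chain pair, relative to the control E17.5 mean (vertical axis), against the mean log2 of 8 lens epithelium markers (horizontal axis), by array; circles are TKO and squares control lenses. The a1/a2 and a5/a6 pairs lie lower on arrays with lower epithelium markers. Within each group the a3/a4 pair is also lowest on the array of lowest marker mean. That array is at -1.28 and 8.43 in TKO P0 lenses, and at -0.50 and 9.30 in control E17.5 lenses. In the 5 control P0 lenses the a3/a4 pair lies between 1.5 and 1.94, above arrays of other groups with similar marker means.

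From E17.5 to birth, control lenses gained the a3/a4 pair and little else of collagen IV. By limma with adjustment over all probe sets, 6 of the 12 probe sets were called higher in control P0 than in control E17.5 lenses and 0 lower, where 7.27% of all probe sets were called higher and 9.88% lower. The 6 were all 5 probe sets of Col4a3 and Col4a4 and the second of Col4a6. For these 6 the groups did not overlap, which in this direction held for 5.81% of all probe sets.

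Col4a3, with the control P0 values given above, stood against 5.45, 5.55, 5.85, 6.14 and 5.82 in control E17.5 lenses. The lowest P0 lens was thus over a log2 unit above the highest E17.5 lens. The change was 1.90 ± 0.13, 3.72-fold higher (limma adjusted p = 2.1e-05), and 1.66 ± 0.12 on the second probe set. Col4a4 had 7.02, 7.56, 7.80, 8.16 and 8.02 in control E17.5 lenses. Its change was 1.71 ± 0.19, 3.27-fold higher (limma adjusted p = 0.00022), and 1.77 ± 0.19 and 1.79 ± 0.15 on its other probe sets. The 5 changes of this pair thus lay between 1.66 and 1.90, close together for probe sets of different brightness.

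The other 4 chains moved by at most 0.24 over the same days in controls. Col4a2 was 0.24 ± 0.09 higher (limma adjusted p = 0.0791) and Col4a1 0.05 ± 0.07 higher (0.67), while Col4a5 changed by -0.09 ± 0.06 (0.347) and Col4a6 by 0.09 ± 0.06 (0.31) on the brightest probe sets. The second Col4a6 probe set rose by 0.17 ± 0.05 (0.0465), a call lost when any 1 of 8 of the 10 lenses was left out. In control lenses the lens epithelium marker mean lay between 9.61 and 9.95 at P0 and between 9.30 and 9.97 at E17.5, and with it as covariate all 5 probe sets of the a3/a4 pair stayed called higher. Other markers moved with stage in controls. At P0 6 of 10 lens fibre markers were called higher, with a median log2 change of 0.17. Called lower were 5 of 17 retina, 3 of 11 macrophage and 2 of 3 erythroid markers, with medians of -0.66, -0.59 and -1.36. Over all probe sets 7.27% were called higher and 9.88% lower. With the retina mean as covariate the 5 probe sets of the pair stayed called, at 1.49 to 1.82 on the log2 scale. The part of the lens fibre, macrophage and erythroid markers was not tested.

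At E17.5 no collagen IV probe set was called between genotypes, although most TKO values were on the low side. Of the 12, 11 had a negative change, 5 reached an unadjusted p under 0.05 in limma and 0 passed adjustment, where 3.27% of all probe sets were called in either direction and 1.12% lower. The median change was -0.39, beside -0.04 over all probe sets. The TKO lenses were not alike. Replicates 25, 26 and 28 lay below the lowest control for 11, 9 and 12 of the 12 probe sets, and replicates 24 and 27, the arrays that stood apart, for 1 and 0.

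Col4a4 shows this most plainly, with 7.43, 4.84, 5.42, 7.72 and 5.20 in TKO E17.5 replicates 24, 25, 26, 27 and 28, against the 7.02 to 8.16 of the controls. Replicates 24 and 27 fell within the control range and the other 3 lay more than 1.5 log2 units below it. The change was -1.59 ± 0.53 (limma adjusted p = 0.113). Col4a3 had 5.76, 5.13, 5.22, 5.68 and 4.46 in the same order, with a change of -0.51 ± 0.22 (0.205). Col4a2 had 11.76, 11.46, 11.41, 11.74 and 11.19, against 11.72, 11.82, 11.996, 12.09 and 12.04 in control E17.5 lenses, a change of -0.42 ± 0.12 (0.0739). In both genes the same 3 TKO lenses were below all controls.

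Col4a1 had 13.08, 12.91, 12.90, 13.08 and 12.47 in TKO E17.5 lenses, against 13.08, 13.14, 13.24, 13.28 and 13.29 in control E17.5 lenses. Col4a5 had 11.31, 10.99, 11.18, 11.44 and 10.52 in TKO E17.5 lenses, against 11.33, 11.23, 11.28, 11.41 and 11.44 in control E17.5 lenses. Col4a6 had 9.84, 9.53, 9.67, 9.88 and 8.61 in TKO E17.5 lenses, against 9.96, 9.86, 9.90, 9.90 and 9.87 in control E17.5 lenses. Replicate 28 was the lowest lens for all 3, and their changes of -0.32 ± 0.11, -0.25 ± 0.15 and -0.39 ± 0.20 were not called (limma adjusted p = 0.135, 0.321 and 0.265).

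Without replicates 24 and 27, 7 of the 12 probe sets were called lower at E17.5 by limma, where 5.98% of all probe sets were, namely the first of Col4a1, that of Col4a2 and all 5 of Col4a3 and Col4a4. Those lenses had been picked on these same arrays for their likeness to the controls, so the fit without them is a description. In it Col4a4 changed by -2.56 ± 0.24 (limma adjusted p = 0.000391), Col4a3 by -0.83 ± 0.20 (0.0216), Col4a2 by -0.58 ± 0.11 (0.00777) and Col4a1 by -0.45 ± 0.11 (0.0289). Leaving out replicate 27 alone gave 4 calls, where 2.8% of all probe sets were called lower. Lens epithelium marker means in TKO E17.5 lenses were 9.59, 9.68, 9.54, 9.77 and 8.79 in replicate order, against 9.30 to 9.97 in control E17.5 lenses. By these markers replicate 28 alone was below the control range. Retina marker means were 5.89, 7.99, 7.66, 6.32 and 6.995 in TKO E17.5 replicates 24 to 28, against 5.79 to 6.76 in control E17.5 lenses, with 0 of 17 called. Pigment cell marker means were 5.87, 7.17, 6.91, 5.85 and 7.19 in the same order, against 6.20 to 6.54 in control E17.5 lenses. The 3 lenses low in collagen IV, replicates 25, 26 and 28, thus lay above the control range of both lists, and replicates 24 and 27 did not. Replicate 28 also had the highest endothelium (8.71), pericyte (8.10) and macrophage (7.55) means of the 10 lenses of this stage. With the retina mean as covariate over all 10 lenses, the E17.5 change of Col4a4 was -0.91 ± 0.37 (limma adjusted p = 0.225) and that of Col4a3 -0.35 ± 0.23 (0.44). With the lens epithelium mean they were -1.12 ± 0.53 (0.25) and -0.21 ± 0.16 (0.48). No collagen IV probe set was called in these fits, where 161 and 421 of all 45037 were called lower. Such fits compare genotypes, and the part of any of these markers in the split among TKO lenses was not tested.

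Between E17.5 and birth no collagen IV probe set was called in TKO lenses, where 11.7% of all probe sets were called in either direction, and 1 of the 12 reached an unadjusted p under 0.05. Col4a3 changed by 0.23 ± 0.25 (limma adjusted p = 0.539) and Col4a4 by 0.64 ± 0.57 (0.461) at P0 against E17.5, and the a1/a2 and a5/a6 probe sets by -0.42 to -0.14. Without TKO E17.5 replicates 24 and 27, 4 probe sets of the a3/a4 pair were called higher at P0, where 4.47% of all probe sets were, with Col4a4 at 1.61 ± 0.37 (0.0269) and the second Col4a3 probe set at 0.87 ± 0.19 (0.0209), while the first Col4a3 probe set, at 0.55 ± 0.24, was not (0.146). For Col4a4 the stage change in TKO lenses therefore turned on those 2 arrays. They held its highest TKO E17.5 values, 7.43 and 7.72, so leaving them out was bound to raise the change. This fit too is a description.

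**Figure D3:**
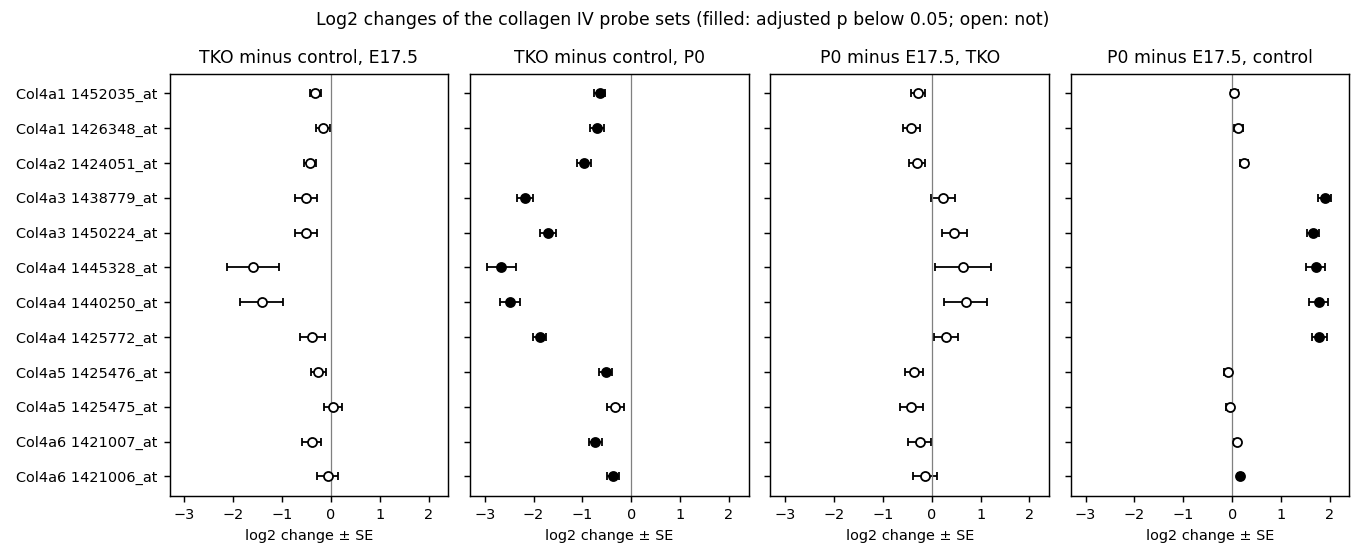
Log2 change ± SE (horizontal axes) of the 12 collagen IV probe sets in 4 comparisons; filled points passed an adjusted p of 0.05 in limma and open points did not. The Col4a3 and Col4a4 probe sets lie furthest left for TKO minus control at P0, between -2.66 and -1.70, and furthest right for P0 minus E17.5 in controls, between 1.66 and 1.90.

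Whether the genotype effect differed between stages was tested over all 20 arrays. The fit shares 1 spread per probe set among the groups, although their SDs were unequal. For Col4a3 1438779_at they were 0.52 in TKO E17.5 and 0.22 in control P0 lenses, and for Col4a4 1445328_at 1.35 and 0.27. The p-values of this test are therefore approximate. The effect at P0 minus that at E17.5 was below 0 for all 12 probe sets, and limma called 1 of them, Col4a3 1438779_at, at -1.66 ± 0.30 (limma adjusted p = 0.0363). Only 0.102% of all probe sets were called lower in this test. The second Col4a3 probe set gave -1.19 ± 0.31 (0.0969) and the dimmest of Col4a4 -1.50 ± 0.31 (0.0555), but the brightest of Col4a4 only -1.07 ± 0.65 (0.459). The Col4a3 call held in 8 of the 20 fits that left out 1 lens. It was lost without TKO E17.5 replicate 26 or 27, control E17.5 replicate 10, 11, 12 or 15, TKO P0 replicate 17, 18 or 19, or control P0 replicate 5, 6 or 7, with changes between -1.86 and -1.54 throughout. It was also lost with the retina mean as covariate, at -1.56 ± 0.32 (limma adjusted p = 0.0835), and with the lens epithelium mean, at -1.17 ± 0.29 (0.191). Without TKO E17.5 replicates 24 and 27 together it was -1.35 ± 0.28 (0.0337), where 0.582% of all probe sets were called lower. The Col4a4 difference then varied by probe set. It was -0.10 ± 0.43 (0.928) on the brightest and -0.32 ± 0.34 (0.671) on 1440250_at. On the dimmest, 1425772_at, it was -1.10 ± 0.24 (0.0409), which was called.

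To compare the pairs, each chain's brightest probe set was set against its own mean in control E17.5 lenses and averaged with its partner. The a3/a4 pair averaged -0.62 ± 0.53 in TKO P0 and 1.80 ± 0.18 in control P0 lenses, and -1.05 ± 0.90 in TKO E17.5 lenses (log2, SD, n = 5 each). The TKO P0 lenses, between -1.28 and -0.01, overlapped the control E17.5 lenses, between -0.50 and 0.41. The a1/a2 pair averaged -0.66 ± 0.29 in TKO P0 and 0.14 ± 0.11 in control P0 lenses, and -0.37 ± 0.24 in TKO E17.5 lenses. The a5/a6 pair averaged -0.63 ± 0.32 in TKO P0 and 0.00 ± 0.09 in control P0 lenses, and -0.32 ± 0.44 in TKO E17.5 lenses. Without replicates 24 and 27 the TKO E17.5 means were -1.69 ± 0.25 for a3/a4, -0.51 ± 0.20 for a1/a2 and -0.54 ± 0.46 for a5/a6 (SD, n = 3). In controls the P0 lenses were clear of the E17.5 lenses for the a3/a4 pair and overlapped them for the other pairs. In TKO P0 lenses the 3 pair means lay between -0.66 and -0.62, relative to the control E17.5 mean. This closeness depended on using the brightest probe sets. When the probe sets of each gene were averaged, the TKO P0 means were -0.375 for a3/a4, -0.66 for a1/a2 and -0.46 for a5/a6.

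**Figure D4:**
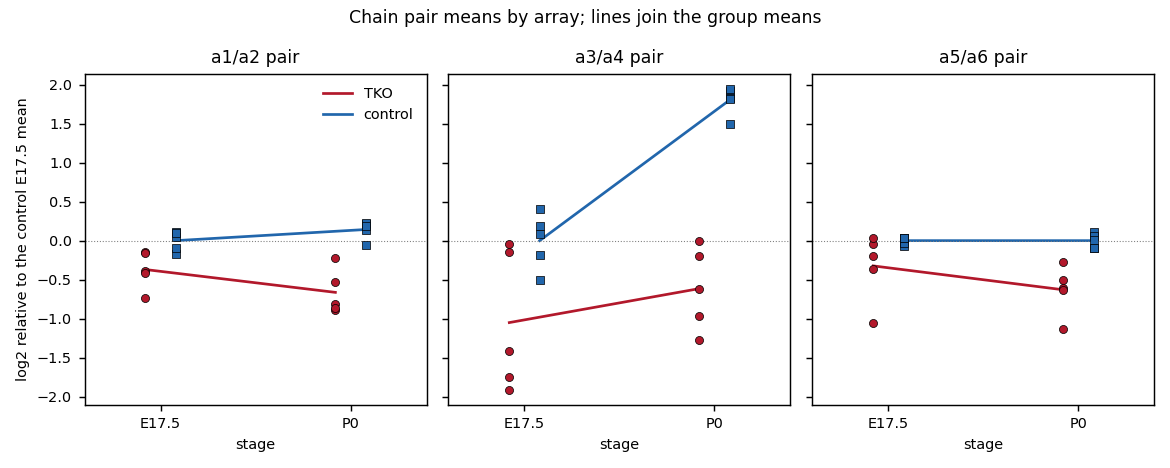
Mean log2 of each chain pair relative to the control E17.5 mean (vertical axis) at E17.5 and P0, by array, in TKO (circles) and control lenses (squares), with lines joining group means. The a3/a4 pair averages -0.62 in TKO P0 and 1.80 in control P0 lenses, while the a1/a2 and a5/a6 pairs part by less, at -0.66 and -0.63 in TKO P0 against 0.14 and 0.00 in control P0 lenses.

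Differences between pairs within an array are not changed by a shift that moves all of its log2 values alike. Signals near background need not shift alike. The a3/a4 signals in TKO P0 lenses are not known to be above background. The a3/a4 minus a1/a2 value averaged 0.05 ± 0.35 in TKO P0 lenses (-0.39 to 0.52) and 1.66 ± 0.07 in control P0 lenses (1.55 to 1.72), lower by 1.61 without overlap. It was -0.68 ± 0.70 in TKO E17.5 lenses, or -1.18 ± 0.18 in the 3 without replicates 24 and 27, and ran between -0.33 and 0.30 in control E17.5 lenses. Within controls the P0 lenses were therefore also clear of the E17.5 lenses. With the probe sets of each gene averaged, a3/a4 minus a1/a2 was 0.28 ± 0.18 in TKO P0 and 1.60 ± 0.08 in control P0 lenses. The a3/a4 minus a5/a6 value averaged 0.01 ± 0.32 in TKO P0 and 1.80 ± 0.16 in control P0 lenses, again without overlap. The a5/a6 minus a1/a2 value averaged 0.03 ± 0.20 in TKO P0 and -0.14 ± 0.11 in control P0 lenses, and the groups overlapped in every comparison. No p is given for these values, because the chains were chosen with earlier results of these data known.

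Within pairs the partners did not move in full step. Col4a1 minus Col4a2 averaged 0.13 ± 0.10 in TKO P0 and -0.19 ± 0.06 in control P0 lenses, so that Col4a2 was lowered by 0.32 more, without overlap. Col4a5 minus Col4a6 averaged 0.02 ± 0.05 in TKO P0 and -0.19 ± 0.08 in control P0 lenses, also without overlap on the brightest probe sets, but with overlap when the probe sets of each gene were averaged. Col4a3 minus Col4a4 averaged 0.67 ± 0.64 in TKO P0 and 0.19 ± 0.33 in control P0 lenses, which overlapped.

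The genes most like each pair were sought over the 20 arrays by the root mean square difference between profiles centred on their own means. For a3/a4 they were Clic5 (0.530), a chloride channel family protein, Susd2 (0.556), Lrrtm3 (0.594), Tfap2a (0.598) and Car8 (0.613), in log2 units. Tfap2a, a transcription factor of lens epithelium, is also 1 of the 8 lens epithelium markers. Lrrtm3 averaged 3.48 in TKO P0 and 5.10 in control P0 lenses, and Car8 averaged 3.98 in TKO P0 lenses. These lie below the array medians and are not known to be above background. Within the pair, Col4a3 and Col4a4 differed from each other by 0.696. The pair itself differed from a flat profile by 1.20, against 0.365 for a1/a2 and 0.359 for a5/a6. Clic5 averaged 5.49 in TKO P0 and 7.18 in control P0 lenses, and 4.82 in TKO E17.5 and 5.17 in control E17.5 lenses. For a1/a2 the nearest were Nid1 (0.114), Cpd (0.115), Htra3 (0.116), Dst (0.119) and Zfp536 (0.125). For a5/a6 they were Nid1 (0.0969), Ptprf (0.101), Arhgap24 (0.107), Bach2 (0.113) and Bcl2l13 (0.115). Nid1, the nidogen that links laminin to collagen IV, headed both lists. Without TKO E17.5 replicates 24 and 27, the same 5 genes were nearest to a3/a4 and to a5/a6. For a1/a2, Gstm7 then took the place of Zfp536, and Htra3 (0.110) came before Nid1 (0.116).

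Other genes of the basement membrane changed in both directions at birth. Of 10 laminin chains on the array, the other network of basement membranes, 0 were called higher and 2 lower in TKO P0 than in control P0 lenses: Lama1 averaged 7.65 ± 0.44 in TKO P0 and 8.72 ± 0.26 in control P0 lenses, a change of -1.07 (limma adjusted p = 0.00225), and Lamb1 fell by 0.64 (0.00539). Named genes called higher made up 12.7% and those called lower 11% of all. Of 16 other components, 3 were called higher and 5 lower. Those lower include Pxdn, which is counted again among the cross-linking enzymes below. Nid1 averaged 10.82 ± 0.28 in TKO P0 and 11.58 ± 0.07 in control P0 lenses (-0.76, 0.000872), and Hspg2, which encodes the heparan sulphate proteoglycan perlecan, changed by -0.54 (0.000703). Col18a1, the source of endostatin, was higher by 1.001 (0.0139) and Agrn (agrin) by 0.39 (0.0271). At E17.5, where 2.58% of named genes were called, Hspg2 was the only one of the 16 called, at -0.50 (0.029), and at -0.64 (0.00211) without TKO replicates 24 and 27.

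Among genes for the cross-linking and processing of collagens, more were called lower than higher. Of 6 cross-linking enzymes 0 were called higher and 2 lower at P0, where 12.7% of named genes were called higher and 11% lower. Pxdn, which encodes peroxidasin, the enzyme that forms the sulfilimine bond between collagen IV protomers, averaged 10.37 ± 0.45 in TKO P0 and 11.43 ± 0.17 in control P0 lenses, a change of -1.06 ± 0.18 (limma adjusted p = 0.00181). Loxl1, a lysyl oxidase, changed by -1.04 ± 0.13 (0.000315). Of 22 genes for collagen modification, folding and secretion, 2 were called higher and 6 lower. The count called higher was near the share among all named genes. The smallest p-values were those of P4ha3, a prolyl hydroxylase subunit (-0.85, 3.15e-05), and Bmp1, a procollagen protease (-0.72, 0.000727), on the lower side, and of P3h3 (0.96, 0.00168) and Colgalt2, a collagen galactosyltransferase (0.60, 0.00239), on the higher side. P4ha3 averaged 3.57 in TKO P0 and 4.42 in control P0 lenses, both below the array medians, so its signals are not known to be above background. Bmp1 was also called at E17.5 (-0.36, 0.0218), and at -0.40 (0.0128) without TKO replicates 24 and 27.

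Of 16 receptors for collagen IV and laminin, 2 were called higher and 4 lower at P0. Among all named genes 12.7% were called higher and 11% lower, so the count of receptors called higher was near that share. Ddr1, an epithelial collagen receptor kinase, changed by -0.46 (limma adjusted p = 0.00148) and Itga3, a laminin-binding integrin chain, by -0.48 (0.0052). Ddr2, its mesenchymal relative, changed by 0.46 (0.00453) and the laminin receptor Bcam by 0.63 (0.000397). Of 19 matrix proteases and inhibitors 6 were called higher and 1 lower. Mmp2, a gelatinase that cuts collagen IV, averaged 8.63 ± 0.55 in TKO P0 and 6.83 ± 0.13 in control P0 lenses (1.79 ± 0.21, 0.000226), Adamts1 changed by 0.63 (0.000489), and Adam9 by -0.68 (0.00315).

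Of 18 TGF-beta pathway genes 5 were called higher and 2 lower at P0 by limma. With 12.7% of named genes called higher and 11% lower, the count called lower was near that share. Ltbp1 changed by 1.61 (limma adjusted p = 0.000952), Tgfbr3 by 0.75 (0.00203), Smad7 by -0.29 (0.0111) and Smad4 by -0.24 (0.0217). Of 25 other collagens 9 were called higher and 0 lower, opposite in direction to collagen IV. Col2a1, the collagen of cartilage and vitreous, averaged 7.69 ± 0.32 in TKO P0 and 6.08 ± 0.27 in control P0 lenses (1.61, 9.19e-05), and its fibril partner Col11a1 averaged 7.28 ± 0.66 in TKO P0 and 4.84 ± 0.46 in control P0 lenses (2.44, 0.000275). The retina and pigment cell markers given above were higher in the same lenses, and their part in these list counts was not tested. The medians of the 8 lists lay between -0.17 and 0.18 on the log2 scale, beside 0.00 over named genes and -0.85 for the 6 chains.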

How the data were processed

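RNA from both lenses of each mouse was hybridised to Affymetrix expression arrays after biotin labelling, per the labels' protocols. The authors deposited log2 values for 45101 probe sets on 20 arrays. How they were normalized is not stated in the labels or the file. The 64 control probe sets were left out. GEO's platform annotation gave 34945 probe sets 1 gene symbol, 932 several and 9160 none, with symbols updated by gene ID through RefSeq. Each comparison was fitted on its own 10 arrays with limma 3.58.1 in R 4.3.3 (lmFit and eBayes, no filter), adjusted by Benjamini-Hochberg over all probe sets and checked on simulated data. The difference of effects used all 20. Alternatives were quantile normalization, median centring, filters at the array median and 75th percentile, other probe set rules, array weights, variance trend, marker covariates and left-out arrays. Genes of each list were named by smallest adjusted p at P0, up to 2 risen and 2 fallen. Members and lists were chosen with earlier results of these data known. The labels name no scan date or batch. Arrays give no counts, and 5 per group limits precision.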

Additional observations from a re-analysis of the deposited data

Results flagged for a closer look

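Among 48 combinations of probe set and group tested for a lens far from the other 4 (Dixon's critical value of 0.71 for 5 samples), 2 stood out, about what chance gives at 1 in 20. Col4a6 1421007_at in TKO E17.5 replicate 28, at 8.61, lay far below the other 4 TKO lenses, and Col4a1 1452035_at in control P0 replicate 1, at 13.08, below the other 4 controls. The genotype effect on Col4a3 1438779_at differed between P0 and E17.5 by -1.66 in the test of that difference (limma adjusted p = 0.0363), a call that several single lenses decided.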

How the results depend on the processing

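No paired analysis was possible because no replicate number occurs in more than 1 group. At P0, TKO against control, 11 probe sets and 6 genes were called. These became 4 and 1 with the retina covariate and 3 and 1 with the lens epithelium covariate (added after seeing the data). Under the retina covariate the 7 probe sets that lost their call had log2 changes between -2.25 and -0.24, and under the lens epithelium covariate the a1/a2 and a5/a6 changes lay between -0.20 and 0.59. They stayed at 10 to 11 and at 6 when each lens was left out. In controls across stages, 6 and 2 became 5 to 7 and 2 to 3. At E17.5 the 0 calls became 2 probe sets and 1 gene with all 20 arrays in the fit, 1 and 1 with the 75th percentile filter, 4 and 3 with array weights, 3 and 3 with the endothelium covariate and 7 and 4 without TKO E17.5 replicates 24 and 27. Leaving out each lens gave 0 to 4 probe sets and 0 to 2 genes, all above 0 without TKO E17.5 replicate 27. In TKO lenses across stages the 0 calls became 1 probe set with all 20 arrays, 5 probe sets and 3 genes with array weights, 4 and 1 without replicates 24 and 27, and 0 to 0 on leaving out each lens. For the difference of effects, 1 probe set became 2 under quantile normalization, median centring, the array median filter, the endothelium covariate and without replicates 24 and 27, 6 probe sets and 3 genes under array weights, and 0 and 0 under the retina and lens epithelium covariates. Averaging probe sets gave 0 genes, and leaving out each lens gave 0 to 4 probe sets (4 without TKO P0 replicate 22) and 0 to 2 genes.

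Signs turned under the lens epithelium covariate, without a call. At E17.5 Col4a1 1426348_at became 0.016 and Col4a6 1421006_at 0.21. At P0 Col4a1 1426348_at became 0.068, Col4a5 0.077 and 0.59, and Col4a6 1421006_at 0.19. Across stages in TKO lenses Col4a1 became 0.093 and 0.041, Col4a2 0.11, Col4a5 0.086 and 0.19, and Col4a6 0.35 and 0.46. In the difference of effects Col4a1 1452035_at became 0.045, Col4a4 1445328_at 0.0083, Col4a5 0.14 and 0.20, and Col4a6 0.17 and 0.21. Elsewhere Col4a6 1421006_at at E17.5 became 0.050 with array weights and 0.040 with the retina covariate, with -0.18 to 0.17 over left-out lenses. Without replicates 24 and 27 Col4a5 1425475_at at E17.5 became -0.21, with -0.051 to 0.21 over left-out lenses, and Col4a6 1421006_at across stages in TKO lenses 0.16. In controls across stages Col4a1 1452035_at became -0.029 with the retina covariate and Col4a5 1425475_at 0.0033 under quantile normalization. The causes were not tested.

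Counts over all probe sets were less steady. At P0 9605 became 5903 with the 75th percentile filter, 553 with the retina and 476 with the lens epithelium covariate. At E17.5 1473 ranged from 561 to 3026 over left-out lenses and reached 781 with the retina covariate, 3825 with the endothelium covariate, 3911 with all 20 arrays, 5547 with array weights and 6468 without replicates 24 and 27. In controls across stages 7726 became 3295 with all 20 arrays and 5081 with the retina covariate. In TKO lenses 5273 ranged from 1226 to 7717 over left-out lenses and became 235 with the lens epithelium covariate, 1545 and 3499 with the filters, 12212 with all 20 arrays and 14502 with array weights. The difference of effects gave 56, and 0 to 1016 over left-out lenses, 0 with the retina and 1 with the lens epithelium covariate, 102 under quantile normalization, 165 under median centring, 96 with the array median filter, 288 with the endothelium covariate, 308 without replicates 24 and 27 and 2732 with array weights. The log2 changes of the 5 Col4a3 and Col4a4 probe sets at P0 kept their sign in every alternative run, between -2.86 and -0.87.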
